A study of Mus musculus with 2 samples.

Results

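The interferon-induced GTPases described here are 10 mouse genes, chosen by symbol: the guanylate-binding proteins Gbp2, Gbp3, Gbp5, Gbp7 and Gbp9, and the immunity-related GTPases Irgm1, Irgm2, Igtp, Ifi47 and Iigp1. All 10 were found, each under 1 identifier, among the 28692 genes of both count matrices. They were read in GR-1+ cells, myeloid cells enriched with magnetic beads for the Ly6G and Ly6C antigens, of mammary fat pad tumors grown in female BALB/c mice, 8 to 10 weeks old at injection. Both tumors had received antibody to PD-1 for 2 weeks. The group 4T1p carried the parental 4T1 line, a triple-negative mammary carcinoma that resists this antibody, and the group 4T1m carried a multiclonal population of 4T1 cells mutagenized with MNNG, which responds to it. Each group was 1 single-cell library, and how many mice were pooled in it was not given in the sources used here.

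Because there was 1 library per tumor type, no difference between the tumors could be tested. Levels are given as CPM, in which UMIs are divided by the total of the same group of cells and put on a common scale, and a UMI stands for 1 captured transcript end. Intervals after CPM values are exact Poisson 95% intervals, intervals after shares of cells are exact binomial 95% intervals, and intervals after log2 ratios come from the exact binomial share of the pair of counts. The interval after a difference of log2 ratios is a normal approximation from the counting variance of all counts involved. All of them cover counting error only and not the spread between mice. All but those after shares of cells treat each UMI as independent, and so also leave out the spread between cells. The study's methods give each library the median UMI count per barcode that the files hold for the library with the other label, so each direction between the tumors rests on the labels of the files, and each group is named by the label of its library.

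Interferons switch on these genes through receptors and JAK kinases. Type I interferons act through IFNAR, JAK1 and TYK2 on interferon-stimulated response elements, and interferon gamma acts through its own receptor, JAK1 and JAK2 on GAS elements. Guanylate-binding proteins assemble on the membranes of intracellular pathogens and promote inflammasome activation. Of the immunity-related GTPases, Irgm1, Irgm2 and Igtp are the regulatory members, which hold the effector members such as Iigp1 inactive on the cell's own membranes. Ifi47 has the nucleotide-binding loop of the effector type.

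The genes lie in a few clusters of the genome (GRCm38, GENCODE). Gbp5, Gbp7, Gbp3 and Gbp2 (ENSMUSG00000105504, ENSMUSG00000040253, ENSMUSG00000028268 and ENSMUSG00000028270) follow each other on the plus strand between chr3:142493978 and chr3:142638008. Gbp9 (ENSMUSG00000029298) is at chr5:105077630-105139539 on the minus strand. Irgm1 (ENSMUSG00000046879, minus strand) is at chr11:48861968-48871683 and Ifi47 (ENSMUSG00000078920, plus strand) at chr11:49076587-49096974. Igtp (ENSMUSG00000078853) at chr11:58199556-58207591 overlaps the longer gene model of Irgm2 (ENSMUSG00000069874) at chr11:58199618-58222782 on the same plus strand, with 162 shared exon bases. On the same strand, Ifi47 shared 111 exon bases with Olfr56, and Gbp9 shared 60 with Gbp8 and 60 with Gbp4. Gbp7 shared 637 with the pseudogene Gm43802, which is not among the genes counted. All 10 are protein-coding. The last 500 transcript bases, which this 3′ assay reads, held no stretch of 50 bases shared with another gene for 8 of the 10. For Gbp5 1.62% and for Irgm1 3.99% of such stretches were shared, in each case with genes outside these families.

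The promoters are shown because these genes are known targets of interferon, whose response elements have a known form. RefSeq promoter windows (GRCm38.p6, from 250 bases before to 50 bases after the annotated start) were at hand for 8 of the 10 genes, all but Gbp9 and Iigp1. Each was searched on both strands for GAAA, any 2 bases and GAAA, a motif of the interferon-stimulated response element type, and for TTCNNNGAA, a motif of the GAS type. The response element motif was present in 7 of the 8 genes, against 3.99% of all 27025 genes with a window, and TTCNNNGAA in 4 of the 8, against 9.55%. The genes Gbp5, Gbp7, Igtp and Irgm2 held both, which 0.54% of all genes did, and Ifi47 held neither. With 1 mismatch allowed, 38.9% of all genes held the first motif and 74.2% the second, so that looser search describes little. In the stretches below, written 5′ to 3′ on the strand of the gene, capitals mark the matched letters of either motif, and a response element match on the other strand reads TTTC, any 2 bases and TTTC.
Igtp: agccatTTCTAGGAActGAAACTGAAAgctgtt
Irgm2: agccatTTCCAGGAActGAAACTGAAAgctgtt
Irgm1: tttcaaGAAATAGAAACCGAAActgatt
Gbp2: ttttagTTTCACTTTCactgtc
Gbp3: acacagTTTCAGTTTCTATTTCccagat
Gbp5: cgttatTTCTCAGAAccaagc
Gbp5: gtgtagTTTCAATTTCagttta
Gbp7: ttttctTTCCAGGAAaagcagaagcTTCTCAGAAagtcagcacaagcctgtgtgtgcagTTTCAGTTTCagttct

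The stretches of Igtp (chr11:58199505-58199537, plus strand, 51 to 19 bases before the start) and Irgm2 (chr11:58214896-58214928, plus strand, 81 to 49 bases before the start) were the same at 32 of their 33 positions. They differed by T10C, counted from 1 at the 5′ end of the printed stretch, which falls in the unspecified letters of the GAS-type motif. In both genes the GAS-type match stood 2 bases before the response element match. Irgm1 (chr11:48871429-48871456, minus strand, 36 to 9 bases before the start) and Gbp3 (chr3:142559993-142560020, plus strand, 51 to 24 bases before the start) each held a pair of overlapping response element matches. The Gbp2 stretch was at chr3:142620598-142620619 on the plus strand, 65 to 44 bases before the start. The Gbp7 stretch, at chr3:142530224-142530298 on the plus strand, 112 to 38 bases before the start, held 2 GAS-type matches and 1 response element match. Of Gbp5, the stretches at chr3:142496876-142496896 and chr3:142496763-142496784, both on the plus strand, are printed, and a further GAS-type match lay 245 to 237 bases before its start. Of 27 type I interferon-stimulated genes with a window, 55.6% held the response element motif, and of 13 genes induced chiefly by interferon gamma 15.4% did. A match is a description of the letters and no evidence that a factor binds there.

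There were 1641 barcodes with 9021132 UMIs in the library labelled 4T1p, 2749 with 14840190 UMIs in that labelled 4T1m, and 0 barcodes in both. After the filter on genes, UMIs and mitochondrial share, 1128 and 2092 barcodes remained. Clusters were built without any gene of the interferon lists and named from marker genes. Neutrophil-like cells numbered 253 in the library labelled 4T1p and 1021 in that labelled 4T1m, with median depths of 2717 and 2481 UMIs, and held all 12 neutrophil markers at 171356 and 171682 CPM summed. Macrophage-like cells numbered 867 and 1017, with median depths of 1600 and 3828 UMIs, and held all 12 macrophage markers at 27956 and 16268 CPM. Each of these lineages also held UMIs of all 12 markers of the other. The level of the markers, not their presence, thus sets the lineages apart. Macrophage markers stood in neutrophil-like cells at 3.73% (4T1p) and 4.55% (4T1m) of their level in macrophage-like cells, and neutrophil markers in macrophage-like cells at 0.610% and 0.930%. These shares are used below as the level that RNA from the other lineage could reach. The summed GTPases stood in neutrophil-like cells at 216% and 98.3% of the macrophage level. Markers of NK cells were at 0 in the neutrophil-like cells of both libraries, and those of T cells had 0 and 2 UMIs there.

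In neutrophil-like cells the 10 GTPases together were higher in the library labelled 4T1p, at 1282 CPM (1206 to 1361), than in that labelled 4T1m, at 455 CPM (432 to 479). This was a 2.82-fold difference, a log2 ratio of 1.49 (1.38 to 1.61). In macrophage-like cells the summed levels lay closer together, at 594 CPM (572 to 617) in the library labelled 4T1p and 463 CPM (447 to 479) in that labelled 4T1m, a log2 ratio of 0.36 (0.29 to 0.43). The log2 ratio was thus larger in neutrophil-like than in macrophage-like cells by 1.13 (1.00 to 1.27). Of the 9 GTPases with at least 50 UMIs in neutrophil-like cells, 8 were at least 2-fold higher in the library labelled 4T1p, as were 3.25% of the 4462 genes measured that deeply, and none was 2-fold lower, as were 7.04%. With TMM scaling or equal weight for each cluster the number 2-fold higher was 7, since Gbp7 then had a log2 ratio of 0.93 or 0.94. In macrophage-like cells 2 of 10 were at least 2-fold higher, against 1.95% of 9054 genes, and none 2-fold lower, against 7.48%. The median log2 ratio of the GTPases was 1.78 in neutrophil-like cells, where that of all genes was -0.07, and 0.40 in macrophage-like cells, where that of all genes was -0.11. Without replicate libraries these ratios describe a pair of libraries, and a difference of the tumors cannot be told apart from a difference of the mice, the cell isolation or the sequencing.

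**Figure D1:**
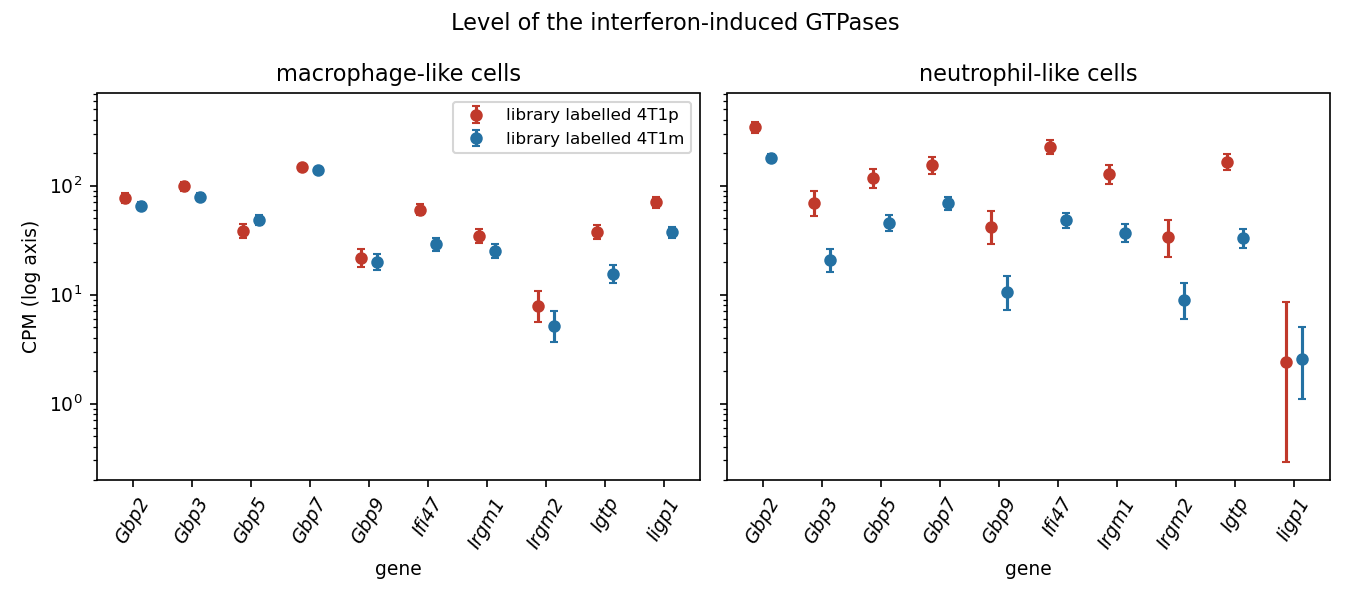
Level of each GTPase in CPM, on a log axis, in macrophage-like cells (left) and neutrophil-like cells (right) of the library labelled 4T1p (red) and that labelled 4T1m (blue); bars are exact Poisson 95% intervals. In neutrophil-like cells 9 of the 10 red points lie above the blue ones, and Iigp1 lies at 2.39 and 2.54 CPM.

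Among the 5 guanylate-binding proteins of the set, Gbp2 had the highest level in neutrophil-like cells. It stood at 344 CPM (305 to 386) in the library labelled 4T1p and at 180 CPM (166 to 196) in that labelled 4T1m, a log2 ratio of 0.93 (0.72 to 1.14), just short of 2-fold. Its UMIs were found in 41.5% (35.4 to 47.8) and 26.7% (24.0 to 29.6) of neutrophil-like cells. In macrophage-like cells Gbp2 was lower in both libraries, at 76.9 and 64.8 CPM, with a log2 ratio between the libraries of 0.25 (0.04 to 0.45). Gbp2 was therefore the GTPase that leaned most to neutrophil-like cells in the library labelled 4T1m, with 2.78-fold the macrophage level, and it made up 39.6% of all GTPase UMIs in those cells.

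Gbp7 was the most abundant of the 10 in macrophage-like cells, at 148 CPM (137 to 159) in the library labelled 4T1p and 138 CPM (130 to 147) in that labelled 4T1m. In neutrophil-like cells it stood at 154 CPM (129 to 183) and 69.0 CPM (60.1 to 78.8), with a log2 ratio of 1.16 (0.83 to 1.48). Gbp7 was hence at a like level in both lineages of the library labelled 4T1p, with a macrophage over neutrophil log2 ratio of -0.06 (-0.33 to 0.22). In the library labelled 4T1m that ratio was 1.00 (0.79 to 1.22), right at 2-fold. With TMM scaling these ratios were -0.62 (4T1p) and 0.14 (4T1m), so both depend on the scaling.

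Of the 5, Gbp3 was the one with a higher level in macrophage-like cells of both libraries, though with TMM scaling its macrophage over neutrophil log2 ratio in the library labelled 4T1p was -0.05. Its level there was 98.8 CPM (90.0 to 108) in the library labelled 4T1p and 78.7 CPM (72.5 to 85.4) in that labelled 4T1m. In neutrophil-like cells it was 69.2 CPM (52.6 to 89.5) and 20.7 CPM (16.0 to 26.3), with a log2 ratio between the libraries of 1.74 (1.21 to 2.28). At 26.3% of the macrophage level in the library labelled 4T1m, its neutrophil value was well above the 4.55% at which macrophage markers stood there.

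Gbp5, which promotes NLRP3 inflammasome assembly, was the one GTPase whose ratio between the libraries had opposite signs in the lineages with both intervals clear of 0. In neutrophil-like cells it stood at 117 CPM (94.96 to 143) in the library labelled 4T1p and 45.2 CPM (38.03 to 53.2) in that labelled 4T1m, a log2 ratio of 1.37 (0.99 to 1.75). In macrophage-like cells it stood at 38.6 CPM (33.2 to 44.7) and 48.8 CPM (43.9 to 54.1), with a log2 ratio of -0.34 (-0.60 to -0.08). The macrophage sign did not hold when each cell was given equal weight: as the mean of CPM per cell, the log2 ratio was 0.23.

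Gbp9 was less abundant. Its neutrophil level was 41.8 CPM (29.1 to 58.1) in the library labelled 4T1p and 10.5 CPM (7.22 to 14.7) in that labelled 4T1m, from 35 and 33 UMIs, a log2 ratio of 1.99 (1.26 to 2.72). Its macrophage level was 21.8 and 19.9 CPM, a log2 ratio of 0.13 (-0.25 to 0.51). Gbp9 was thus higher in neutrophil-like cells in the library labelled 4T1p and higher in macrophage-like cells in that labelled 4T1m. With TMM scaling the lineages stood level in the library labelled 4T1m, at 15.2 (macrophage-like) and 14.5 CPM (neutrophil-like), a log2 ratio of 0.06.

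The regulatory immunity-related GTPases were all higher in the library labelled 4T1p in neutrophil-like cells, and only Igtp stood apart from the other GTPases of the set. Igtp stood at 166 CPM (139 to 196) in the library labelled 4T1p and 33.1 CPM (27.0 to 40.1) in that labelled 4T1m, a log2 ratio of 2.33 (1.95 to 2.71), which was the highest of the 10. Irgm1 stood at 127 CPM (104 to 153) and 36.9 CPM (30.5 to 44.2), with a log2 ratio of 1.78 (1.38 to 2.17). Irgm2 stood at 33.4 CPM (22.2 to 48.3) and 8.90 CPM (5.92 to 12.9), from 28 UMIs in each library, a log2 ratio of 1.91 (1.10 to 2.72). All 3 regulators were therefore over 3-fold higher in the library labelled 4T1p, as were Gbp3, Gbp9 and Ifi47.

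In macrophage-like cells the regulators split. Igtp was higher in the library labelled 4T1p, at 37.6 CPM (32.2 to 43.6) against 15.6 CPM (12.8 to 18.7), with a log2 ratio of 1.27 (0.92 to 1.62). Irgm1 differed less, at 34.6 and 25.03 CPM, a log2 ratio of 0.47 (0.15 to 0.78). Irgm2, at 7.90 and 5.14 CPM, had a log2 ratio of 0.62 (-0.07 to 1.31), whose interval includes 0. Igtp and Irgm2 share exon bases on the same strand, but the last 500 transcript bases of neither held a stretch of 50 bases shared with another gene. The overlap therefore concerns chiefly UMIs from outside those ends, which may have been counted for neither gene or for the other.

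Of the members of the effector type, Ifi47 followed the regulators and Iigp1 did not. Ifi47 stood in neutrophil-like cells at 228 CPM (197 to 263) in the library labelled 4T1p and 48.0 CPM (40.7 to 56.3) in that labelled 4T1m, a log2 ratio of 2.25 (1.93 to 2.56). In macrophage-like cells Ifi47 stood at 60.2 and 29.1 CPM, a log2 ratio of 1.05 (0.79 to 1.31). It was found in 32.0% (26.3 to 38.1) of the neutrophil-like cells of the library labelled 4T1p and in 9.30% (7.59 to 11.3) of those of the library labelled 4T1m.

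Iigp1 was found chiefly in macrophage-like cells. Its macrophage level was 70.2 CPM (62.9 to 78.3) in the library labelled 4T1p and 37.3 CPM (33.1 to 42.01) in that labelled 4T1m, a log2 ratio of 0.91 (0.68 to 1.15). With equal weight for each cluster the ratio was 0.43, outside that interval. Within the macrophage-like clusters described below it was 1.46 and 1.78 in clusters 1 and 7, and -0.02, -0.16 and 0.15 in clusters 4, 5 and 0. In neutrophil-like cells Iigp1 had 2 UMIs in 253 cells and 8 UMIs in 1021 cells, or 2.39 and 2.54 CPM. These values were 3.40% and 6.81% of the macrophage level, beside 3.73% and 4.55% for the macrophage markers, so no expression of Iigp1 in neutrophil-like cells is read from so few UMIs. Of the 28 T cell-like cells, 4 held 7 UMIs of Iigp1.

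**Figure D2:**
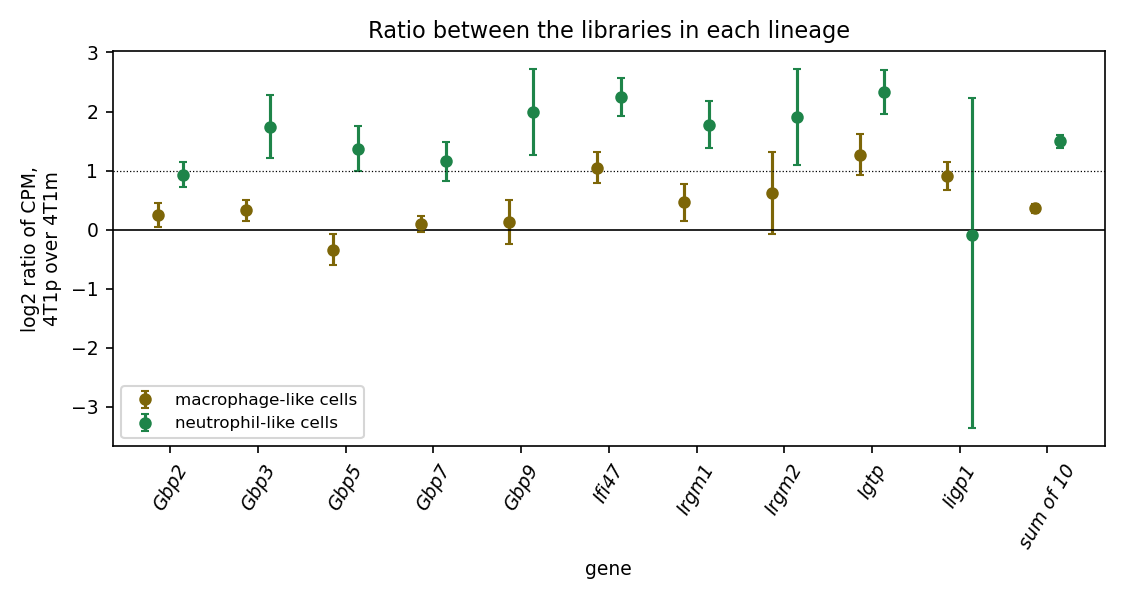
Log2 ratio of CPM, library labelled 4T1p over that labelled 4T1m, for each GTPase and their sum, in macrophage-like cells (brown) and neutrophil-like cells (green); bars are 95% intervals of counting error and the dotted line marks 2-fold. For 9 genes the green point lies above the brown one, with differences of 0.68 (Gbp2) to 1.86 (Gbp9), and the interval of Iigp1 in neutrophil-like cells runs from -3.36 to 2.23.

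Set against macrophage-like cells of the same library, neutrophil-like cells were the higher ones in the library labelled 4T1p, with a macrophage over neutrophil log2 ratio of the sum of -1.11 (-1.21 to -1.01). In the library labelled 4T1m the lineages stood level, at 0.02 (-0.07 to 0.11). In the library labelled 4T1p, 6 of the 10 GTPases (Gbp2, Gbp5, Ifi47, Irgm1, Irgm2 and Igtp) were at least 2-fold higher in neutrophil-like cells, against 11% of 7135 genes, and 1 (Iigp1) in macrophage-like cells, against 50.1%. In the library labelled 4T1m, 2 (Gbp2 and Igtp) were at least 2-fold higher in neutrophil-like cells, against 10.4% of 8581 genes, and 3 (Gbp3, Gbp7 and Iigp1) in macrophage-like cells, against 54.4%. In the library labelled 4T1p the lean to neutrophil-like cells was not particular to the 10 chosen genes. Of 30 type I interferon-stimulated genes, 16 were at least 2-fold higher in neutrophil-like and 6 in macrophage-like cells, against 11% and 50.1% of genes. Of 14 interferon signalling genes 6 and 2 were. Of 18 genes induced chiefly by interferon gamma 3 and 9 were, near those shares. In the library labelled 4T1m the type I counts were 7 and 10 of 30, against 10.4% and 54.4%. Of the other guanylate-binding proteins with at least 50 UMIs, 2 of 3 were 2-fold higher in macrophage-like cells of each library, and 1 in neutrophil-like cells of 4T1p. Of the other immunity-related and dynamin-like GTPases 2 of 3 (4T1p) and 4 of 5 (4T1m) were, and 1 in each library in neutrophil-like cells. So few genes are not set against the shares of all genes. These ratios use each lineage's own total, and the median log2 ratio of all genes tested was 1.00 and 1.21 towards macrophage-like cells. TMM scaling moved that median to 0.44 and 0.35 and the ratio of the summed GTPases to -1.67 and -0.84. In the library labelled 4T1m that ratio was also -0.27 as the mean of CPM per cell, -0.32 after thinning to 1000 UMIs and 0.17 with median-of-ratios size factors, so the level standing of the lineages there depends on the scaling and on the weight of each cell.

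The difference between the libraries was not spread evenly over the neutrophil-like clusters. Cluster 2, led by Mirt1, G0s2, Hdc and Il1f9, held the highest GTPase level of the neutrophil-like clusters in both libraries, at 2365 CPM (2194 to 2546) in 95 cells of the library labelled 4T1p and 746 CPM (693 to 802) in 316 cells of that labelled 4T1m, a 3.17-fold difference. The leading genes of cluster 2 also included Irg1 and Trim30b, which are on none of the interferon lists. Leaving out those lists thus need not free the clusters of the interferon response. Cluster 3, led by Ccdc126, Ciart and Tnfrsf23, stood at 911 and 395 CPM, 2.31-fold apart. Cluster 6, led by Slc2a3, Steap4 and Sh2d3c, stood at 1056 and 406 CPM, 2.60-fold apart, though from 36 cells of the library labelled 4T1p. Cluster 8, led by Camp, Ngp, Ltf and Ly6g, which are granule and surface genes of developing neutrophils, had the lowest level and the smallest gap. It stood at 280 CPM (214 to 359) in 26 cells and 238 CPM (209 to 270) in 153 cells, a log2 ratio of 0.23 (-0.20 to 0.64).

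Within cluster 2 every GTPase with UMIs in both libraries was higher in the library labelled 4T1p. The log2 ratios there ran from 1.10 (0.82 to 1.37) for Gbp2 to 2.70 for Gbp9 (1.73 to 3.74) and Irgm2 (1.30 to 4.25). Ifi47 reached 410 CPM in cluster 2 of the library labelled 4T1p, against 92.0 CPM in that labelled 4T1m. Igtp reached 286 CPM against 54.2 CPM. In cluster 8 Gbp2 stood at 105 and 115 CPM, with an interval of the log2 ratio from -0.84 to 0.53, while Ifi47 had 8 UMIs in each library, in 2 of 26 and 7 of 153 cells, so no ratio is read from it.

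Macrophage-like clusters differed more from each other than between the libraries. Different clusters held most macrophage-like cells in each: cluster 5 (Tmem176a, Tmem176b, H2-Eb1), cluster 0 (Fabp5, Slc25a4, Lgals1) and cluster 4 (C6, Spon1, Cx3cr1) held 255, 214 and 189 cells of the library labelled 4T1p, and cluster 1 (Vcan, Thbs1, Ednrb) and cluster 0 held 342 and 307 cells of that labelled 4T1m. Cluster 4 stood at 697 CPM (664 to 732) and 760 CPM (725 to 797), with a log2 ratio of -0.13 (-0.22 to -0.03). Cluster 1 stood at 333 and 299 CPM, a log2 ratio of 0.16 (-0.02 to 0.33). Cluster 5 stood at 729 and 657 CPM, with 0.15 (-0.11 to 0.42), and cluster 0, whose median depth was about 908 UMIs, at 326 and 305 CPM. Only cluster 7, led by the proliferation genes Birc5, Ube2c and Top2a, showed a wider gap, at 855 CPM (755 to 964) against 500 CPM (429 to 580), and Iigp1 was 3.42-fold higher there in the library labelled 4T1p. When the clusters of a lineage were given equal weight in both libraries, the log2 ratio of the summed GTPases was 0.22 in macrophage-like and 1.37 in neutrophil-like cells. Cluster 0, with 521 cells, held the fewest macrophage markers, 6 of 12 in at least 25% of its cells and 0 among its 10 leading genes. Its mean share of cells relative to the highest cluster was 0.415 for macrophage, 0.845 for tumor epithelial and 0.568 for fibroblast markers. No tumor epithelial or fibroblast marker reached 25% of the cells of cluster 0. Cluster 7 held 8 of 12 macrophage markers in at least 25% of its cells and 0 among its 10 leading genes. Its mean relative share was 0.526 for macrophage and 0.496 for tumor epithelial markers, so its gap between the libraries is less surely one of macrophages. No tumor epithelial marker reached 25% of its cells either.

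**Figure D3:**
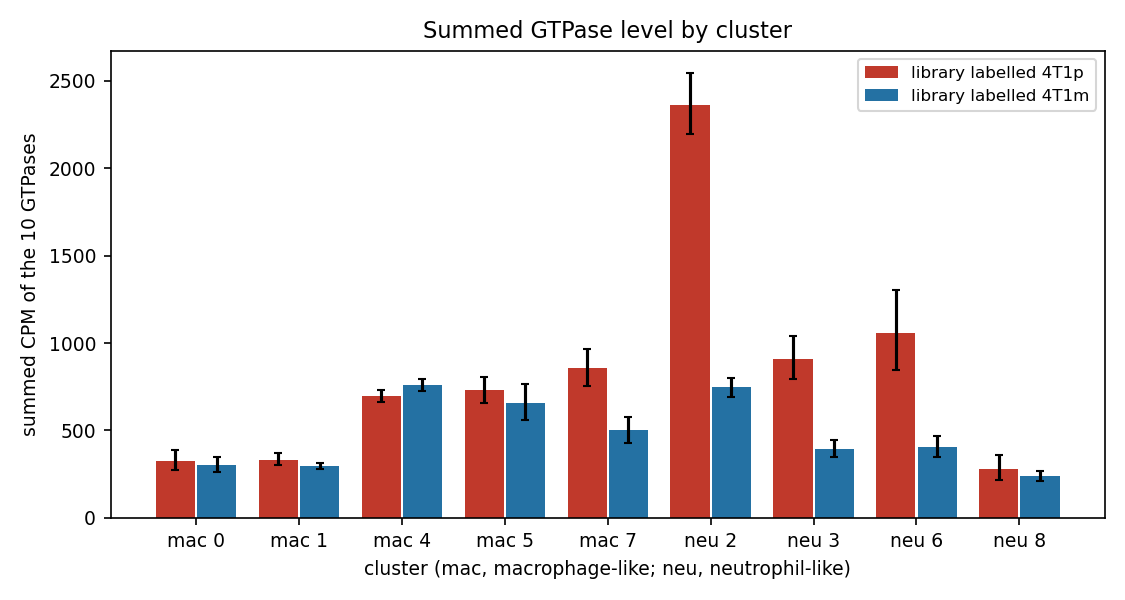
Summed CPM of the 10 GTPases in each macrophage-like (mac) and neutrophil-like (neu) cluster, in the library labelled 4T1p (red) and that labelled 4T1m (blue); error bars are exact Poisson 95% intervals. The neutrophil-like clusters 2, 3 and 6 have red bars over 2-fold the blue ones, and cluster 8 has the lowest bars of both colors.

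Because the libraries and lineages differed in depth, the share of cells with a GTPase UMI was also read after each cell had been thinned to 1000 UMIs. At that depth at least 1 of the 10 was found in 48.5% (41.9 to 55.1) of 231 neutrophil-like cells of the library labelled 4T1p and in 23.1% (20.5 to 26.0) of 938 cells of that labelled 4T1m. In macrophage-like cells the shares were 36.9% (32.9 to 41.0) of 572 and 25.6% (22.6 to 28.8) of 784. The thinning left out 22 and 83 neutrophil-like and 295 and 233 macrophage-like cells with fewer UMIs. Of the B cell-like cells, the class with the lowest GTPase level, 14.7% held one at that depth, and 35.7% of the T cell-like cells did. Without thinning the shares were 72.7% and 41.9% of neutrophil-like and 56.2% and 55.3% of macrophage-like cells.

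Cells with several of these transcripts took the largest share among neutrophil-like cells of the library labelled 4T1p. Of the thinned neutrophil-like cells, 15.6% (11.2 to 20.9) held 3 or more of the 10 genes in the library labelled 4T1p and 3.52% (2.43 to 4.91) in that labelled 4T1m. Of the macrophage-like cells 2.45% (1.34 to 4.07) and 1.53% (0.793 to 2.66) did. The tenth of cells with most GTPase UMIs held 48.5% of these UMIs in neutrophil-like cells of the library labelled 4T1p and 72.5% in those of that labelled 4T1m. In macrophage-like cells the same shares were 47.9% and 59.2%. Such a share goes up by itself where UMIs per cell are fewer, so it does not compare how evenly the libraries held them.

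The wider interferon pathway was read from lists of other genes, counted at 2-fold against the background above. Of the type I interferon-stimulated genes with at least 50 UMIs, 16 of 26 were at least 2-fold higher in neutrophil-like cells of the library labelled 4T1p and none lower, with a median log2 ratio of 1.44. Of all genes 3.25% were higher and 7.04% lower there. In macrophage-like cells 6 of 30 were higher and 2 lower, against 1.95% and 7.48% of all genes, with a median of 0.40. The 2 lower are near that share, and nothing is read from them. Isg15, a ubiquitin-like modifier, stood in neutrophil-like cells at 2547 and 700 CPM, a log2 ratio of 1.86 (1.78 to 1.95). Rsad2, the antiviral enzyme viperin, stood at 1112 and 296 CPM in neutrophil-like cells, a log2 ratio of 1.91 (1.78 to 2.04), and at 401 and 521 CPM in macrophage-like cells, a log2 ratio of -0.38. Ifit2 had the highest ratio of the list in neutrophil-like cells, 3.09 (2.44 to 3.78), from 66 and 29 UMIs. Ifih1, the cytosolic RNA sensor MDA5, had a neutrophil log2 ratio of -0.16 (-0.69 to 0.34).

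Of the genes induced chiefly by interferon gamma, 6 of 12 were at least 2-fold higher in neutrophil-like cells of the library labelled 4T1p, against 3.25% of all genes. In macrophage-like cells 4 of 18 were, against 1.95%. The medians were 0.94 and 0.69. None was 2-fold lower in either, against 7.04% and 7.48% of all genes, from which nothing is read with so few genes. Psmb8, a subunit of the immunoproteasome, stood at 254 and 79.2 CPM in neutrophil-like cells, a log2 ratio of 1.68 (1.41 to 1.95), and at 552 and 325 CPM in macrophage-like cells. Cxcl9, the chemokine most tied to interferon gamma, was a macrophage transcript, at 243 and 100 CPM there, a log2 ratio of 1.28, with 6 and 17 UMIs in neutrophil-like cells. Cd274, which encodes PD-L1, stood at 826 and 577 CPM in neutrophil-like cells, a log2 ratio of 0.52 (0.39 to 0.65), and was lower in the library labelled 4T1p in macrophage-like cells, at 154 and 209 CPM.

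**Figure D4:**
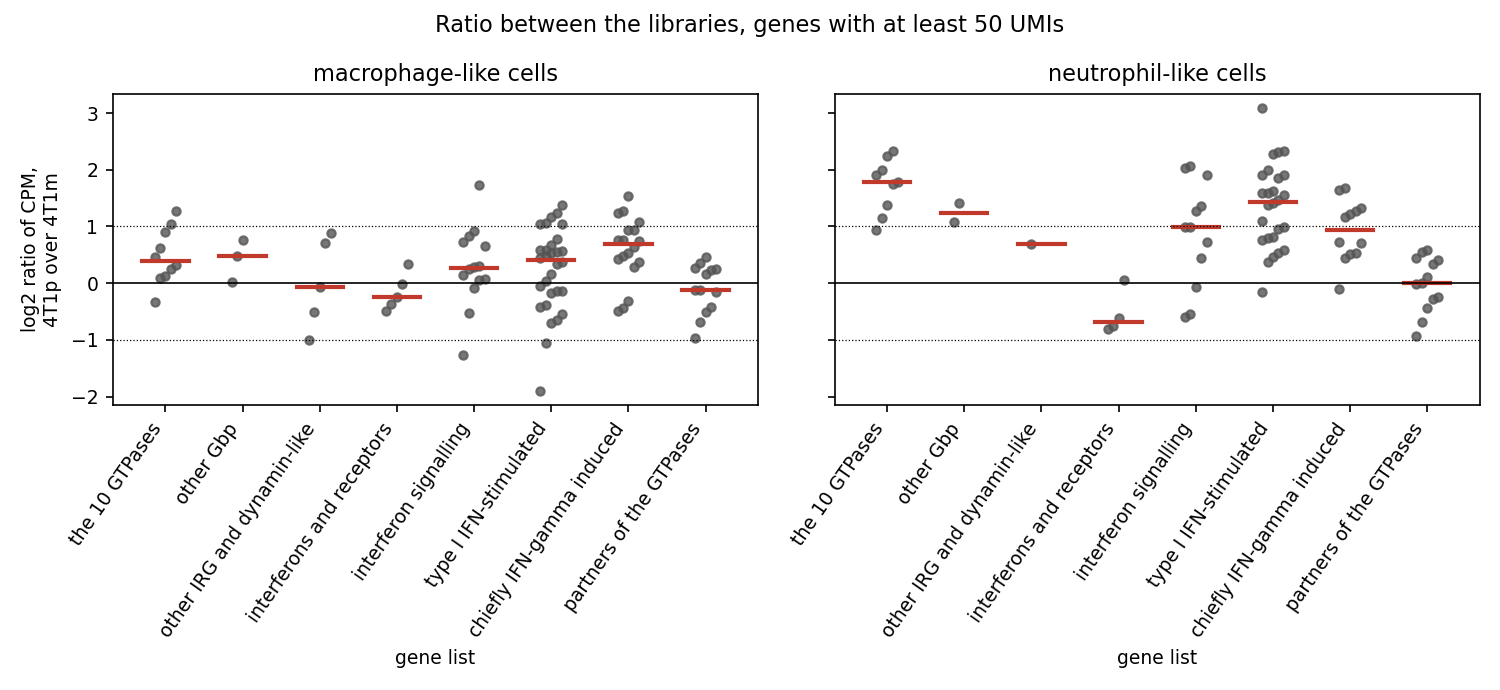
Log2 ratio of CPM, library labelled 4T1p over that labelled 4T1m, for the genes of each list with at least 50 UMIs, in macrophage-like cells (left) and neutrophil-like cells (right); a point is a gene, a red bar the median of its list, and dotted lines mark 2-fold. In neutrophil-like cells the 10 GTPases have the highest median, 1.78 over 9 genes, and the partners of the GTPases the one nearest 0.

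Of the signalling genes, 5 of 12 were at least 2-fold higher in neutrophil-like cells of the library labelled 4T1p, against 3.25% of all genes. In macrophage-like cells 1 of 14 was, against 1.95%. Socs1, the feedback inhibitor of JAK kinases, stood in neutrophil-like cells at 89.5 and 21.3 CPM, a log2 ratio of 2.07 (1.58 to 2.57), and in macrophage-like cells at 23.3 and 19.5 CPM. Usp18, which removes ISG15 and dampens IFNAR signalling, had a neutrophil log2 ratio of 2.03 (1.54 to 2.52). Irf7 was high in both lineages of the library labelled 4T1p, with log2 ratios of 1.91 (1.61 to 2.21) in neutrophil-like and 1.74 in macrophage-like cells. Irf1, a transcription factor of the interferon response, stood at 358 and 180 CPM in neutrophil-like cells, a log2 ratio of 0.99 (0.78 to 1.19). The kinases Jak1 and Jak2 were lower in neutrophil-like cells of that library, with log2 ratios of -0.60 (-0.83 to -0.38) and -0.55 (-0.92 to -0.19). In macrophage-like cells Jak2 was the 1 signalling gene at least 2-fold lower there, at 39.7 and 95.2 CPM, a log2 ratio of -1.26 (-1.50 to -1.03). A count of 1 of 14 is near the 7.48% of all genes that were 2-fold lower in those cells.

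The receptors carry the signal of both kinds of interferon into the cell. None of the 4 receptor genes was 2-fold different in either lineage, but 4 genes are too few to set against the shares of all genes. In neutrophil-like cells Ifnar2 had a log2 ratio of 0.06 (-0.25 to 0.37), while Ifnar1, at -0.62 (-1.08 to -0.19), Ifngr1, at -0.80 (-1.13 to -0.48), and Ifngr2, at -0.75 (-1.35 to -0.19), were lower in the library labelled 4T1p. In macrophage-like cells Ifnar2 was higher in that library, at 105 and 83.1 CPM, a log2 ratio of 0.34 (0.17 to 0.51), and Ifnar1, at -0.49 (-0.69 to -0.29), and Ifngr1, at -0.37 (-0.52 to -0.21), were lower.

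The ligands were found in few cells. Ifnb1 had 270 UMIs in macrophage-like cells of the library labelled 4T1p and 505 in those of that labelled 4T1m, at 57.6 and 68.3 CPM, and 1 and 6 UMIs in neutrophil-like cells. Most of it was in cluster 4, where 28.0% (21.8 to 35.0) and 47.1% (39.5 to 54.8) of cells held it, at 82.7 and 137 CPM. Cluster 1 followed, with 18.2% (11.1 to 27.2) and 17.3% (13.4 to 21.7) of cells. Summed over macrophage-like cells, Ifnb1 was therefore not higher in the library labelled 4T1p. By cluster it was higher there in cluster 5, at 27.5 and 7.87 CPM from 15 and 2 UMIs. In cluster 1 it stood at 51.6 and 45.3 CPM, and in clusters 0, 4 and 7 it was lower in that library. Cells that were not captured are not covered. Ifng had 0 UMIs in macrophage-like and neutrophil-like cells and was found in T cell-like cells, with 19 UMIs in 2 of 7 cells of the library labelled 4T1p and 6 UMIs in 1 of 21 of that labelled 4T1m. Too few lymphocytes were captured to compare it.

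The other GTPases of these families were mostly scarce in neutrophil-like cells. Of the other guanylate-binding proteins, Gbp2b stood there at 415 CPM (373 to 461) and 197 CPM (182 to 213), with a log2 ratio of 1.08 (0.88 to 1.27), and Gbp4 at 32.2 and 12.1 CPM, a log2 ratio of 1.42 (0.65 to 2.16). In macrophage-like cells none of 3 was 2-fold different between the libraries, too few genes to set against the shares of all genes. Gbp4 stood there at 105 and 104 CPM, above its levels in neutrophil-like cells. Of the other immunity-related and dynamin-like GTPases, 9930111J21Rik2 alone reached 50 UMIs in neutrophil-like cells, with a log2 ratio of 0.69 (0.29 to 1.07). Mx1 had 33 and 104 UMIs in macrophage-like cells, a log2 ratio of -0.998, and 3 and 2 UMIs in neutrophil-like cells. Tgtp1, Tgtp2, Gbp6, Gbp10 and Gvin1 share their entire 3′ ends with another gene, so their counts are uncertain. Of the partners through which the GTPases act, in autophagy and inflammasomes, none of 13 was 2-fold different in either lineage. In the library labelled 4T1p, 3.25% of all genes tested were 2-fold higher and 7.04% lower in neutrophil-like cells. In macrophage-like cells these shares were 1.95% and 7.48%. So few genes leave the count of the partners near those shares, and nothing is read from it. Nlrp3, the inflammasome sensor, came nearest to 2-fold, at 778 and 1477 CPM in neutrophil-like cells, a log2 ratio of -0.92 (-1.05 to -0.81), opposite in direction to Gbp5.

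Within cells, GTPase UMIs went with UMIs of the type I interferon-stimulated genes, in cells thinned to 1000 UMIs. In neutrophil-like cells of the library labelled 4T1p, cells with 0 such UMIs held 0.385 GTPase UMIs on average (0.184 to 0.707), those with 1 to 2 held 0.614, those with 3 to 9 held 0.881 and those with 10 or more held 2.77 (2.41 to 3.16). In those of the library labelled 4T1m the averages were 0.129 (0.0879 to 0.181), 0.282, 0.663 and 1.65 (1.39 to 1.95). The averages of the library labelled 4T1p were higher at every range, though the intervals of the libraries at 3 to 9 UMIs overlapped. With Isg15 left out of the list the averages were still higher at every range. The intervals then overlapped at 0 and at 10 or more UMIs, and no longer at 3 to 9. The ranges are broad and the last has no upper end, so cells of a range were not matched on these genes. The range of 10 or more held 33.3% of the neutrophil-like cells of the library labelled 4T1p and 8.96% of those of that labelled 4T1m.

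In macrophage-like cells the same step was smaller. The averages went from 0.230 (0.125 to 0.385) at 0 UMIs to 1.32 (1.03 to 1.65) at 10 or more in the library labelled 4T1p, and from 0.224 (0.158 to 0.309) to 0.696 (0.495 to 0.952) in that labelled 4T1m. The highest range held 9.97% and 7.14% of macrophage-like cells. These ranges cut a continuous score and are no cell types, and cells of 1 library share its preparation.

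**Figure D5:**
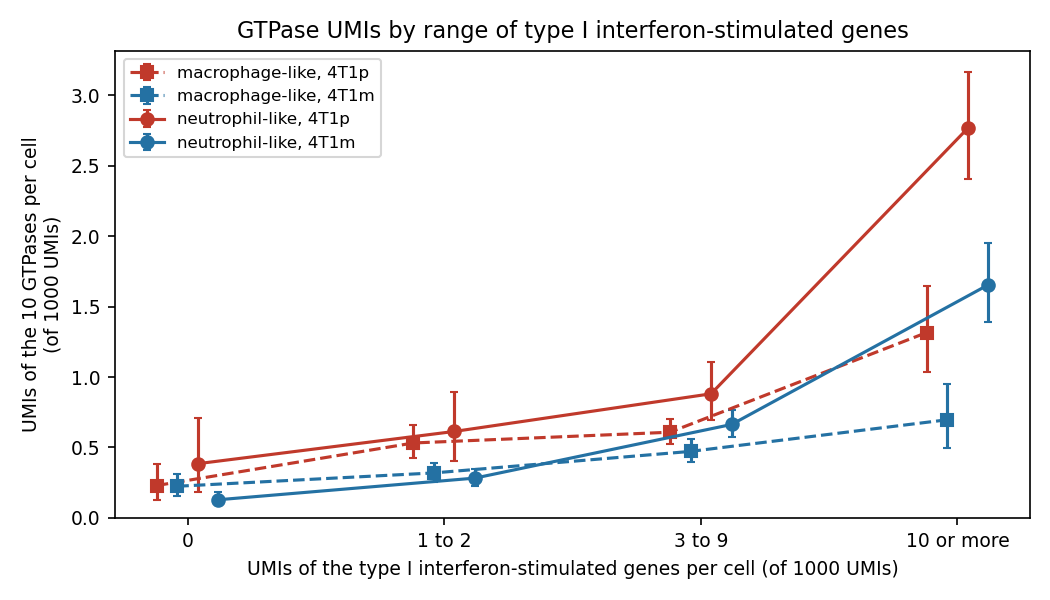
Mean UMIs of the 10 GTPases per cell, of 1000 UMIs, by range of UMIs of the type I interferon-stimulated genes, for macrophage-like (squares, dashed) and neutrophil-like cells (circles, solid) of the library labelled 4T1p (red) and that labelled 4T1m (blue); bars are exact Poisson 95% intervals. The averages of neutrophil-like cells go from 0.385 to 2.77 (red) and from 0.129 to 1.65 (blue).

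The GTPases also varied together from cell to cell in neutrophil-like cells of the library labelled 4T1p. There, each gene's Spearman correlation with the sum of the other 9, over 231 thinned cells, ran from 0.09 (Irgm2) to 0.51 (Gbp2), with 0.43 for Ifi47, leaving out Iigp1, which had no UMI. Over 938 such cells of the library labelled 4T1m it ran from 0.02 (Iigp1) to 0.30 (Gbp2). In macrophage-like cells it stayed between 0.01 and 0.18, which in counts this sparse is no finding. Such a correlation depends on the UMIs per cell, so its size does not compare the libraries or the lineages.

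Among 1116 other genes found in enough thinned cells, the 10 whose UMIs were most like the summed GTPases, by the mean correlation over both lineages in both libraries, included Gbp2b, Isg15, Rsad2, H2-D1, Irf1, Samhd1, H2-K1, Oasl1 and Trim30a. Gbp2b led with a mean of 0.29, and 0.49 in neutrophil-like cells of the library labelled 4T1p. Only the first 3 had a mean above 0.2, and in macrophage-like cells none of the 10 exceeded 0.20. All these values are descriptions of cells that share a library, depth and cluster makeup.

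Few lymphocytes were captured. The 34 B cell-like cells, 33 of them from the library labelled 4T1m, held 16 GTPase UMIs, at 96.6 CPM (55.2 to 157), the lowest level of the cell classes. The 28 T cell-like cells held 119, at 668 CPM (553 to 800), with Gbp7 at 174 CPM and Igtp at 140 CPM.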

How the data were processed

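GR-1+ cells of 1 tumor group per library were sequenced with the 10x Chromium 3′ assay. The authors deposited filtered matrices of raw UMI counts per gene and barcode, made, per the labels, with Cell Ranger on mm10. The matrix headers name software version 3.1.0, whereas the study's methods name a later version. Gene symbols are those of the deposited feature tables. From these counts, barcodes with 250 to 5000 genes, at most 27000 UMIs and at most 12.5% mitochondrial UMIs were kept, following these limits of the study. The study also required expression of Ptprc and removed doublets, which the main values did not. A Ptprc UMI was held by 333 of 867 (4T1p) and 612 of 1017 (4T1m) macrophage-like cells. Of the neutrophil-like cells, 177 of 253 and 910 of 1021 held one. Keeping only cells with a Ptprc UMI was run as an alternative. The 3000 most variable genes after SCTransform (Seurat 5.3.0, sctransform 0.4.2), less 64 on the interferon lists, gave 11 principal components and 11 clusters at resolution 0.8. Between neutrophil-like and macrophage-like, a cluster took the name whose markers had the higher mean share of cells relative to the highest cluster. At least 3 of those markers had to be found in at least 25% of its cells. The B cell-like and T cell-like clusters each held all 3 of their markers at that share. Doublets were not removed in the main values, and the highest Scrublet scores (scanpy 1.11.5), 13 and 44 barcodes, were left out as an alternative. The authors' cell annotation was not used here.

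UMIs were summed per lineage and library and divided by the summed total. Genes with at least 50 UMIs in both groups together were counted as past 2-fold or not. Thinning drew 1000 UMIs per cell without replacement, and the ratio and thinning code was tested on simulated data. Named were the 10 members, genes of the lists by role, and the 10 genes most like the members. The members and the lists were chosen with earlier results of these data known. Depth was 9021132 and 14840190 UMIs. Totals were summed with Python 3.11.15, and TMM factors came from edgeR 4.0.16. Protein sequences were not analysed here, and 1 gene of the lists is not reported here. Motifs were searched in RefSeq windows of GRCm38.p6, matched by symbol for 8 members. Alternatives covered filters, doublets, clustering, lineage calls, scaling, depth, count minimums and mismatches.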

Additional observations from a re-analysis of the deposited data

Results flagged for a closer look

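The ratio of Gbp5 between the libraries had opposite signs in the lineages: the log2 ratio, library labelled 4T1p over that labelled 4T1m, was -0.34 in macrophage-like and 1.37 in neutrophil-like cells. The difference was not tested, since each tumor type is 1 library. The ratio of Gbp9 between the lineages had opposite signs in the libraries: the log2 ratio, macrophage-like over neutrophil-like, was -0.94 (4T1p) and 0.92 (4T1m), and this difference was not tested either. With TMM scaling the ratio of Gbp9 in the library labelled 4T1m was 0.06.

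Barcodes that the filters left out also held GTPase UMIs, above what a count of 0 allows. Those over the mitochondrial limit stood at 579 CPM in the library labelled 4T1p and 405 CPM in that labelled 4T1m. Those over 27000 UMIs or 5000 genes, which can hold more than 1 cell, stood at 803 and 471 CPM. Those under 250 genes stood at 51.3 and 21.7 CPM, from 15 and 5 UMIs.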

How the results depend on the processing

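Across 14 other settings, 2 of them chosen after seeing the data, the log2 ratio of the summed GTPases, library labelled 4T1p over that labelled 4T1m, ran from 1.27 to 1.60 in neutrophil-like and from 0.22 to 0.69 in macrophage-like cells. Of 538 recomputed ratios of single genes, 471 stayed within the counting interval, 64 left it and 3, whose own interval excluded 0, changed sign: Gbp5 between the libraries in macrophage-like cells to 0.23 as the mean of CPM per cell, Gbp3 between the lineages in the library labelled 4T1p to -0.051 with TMM, and Irgm2 between the lineages in the library labelled 4T1m to 0.26 after thinning to 1000 UMIs. A further 14, of 6 ratios whose interval includes 0, also changed sign, among them Gbp5 between the lineages in the library labelled 4T1m, from 0.11 to as low as -0.75 with TMM, Irgm2 between the libraries in macrophage-like cells, to -0.13 after thinning, and Iigp1 in neutrophil-like cells, to as high as 1.41. The cause was not tested. Depth limits Iigp1 in neutrophil-like cells (10 UMIs in all) and Irgm2.

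The following left the counting interval, in the order macrophage-like 4T1p and 4T1m, then neutrophil-like 4T1p and 4T1m where a setting moved them. Summed CPM was 528, 410 and (neutrophil-like, 4T1m) 419 with a 5% mitochondrial limit. It was 476, 353, 1517 and 630 with TMM, and 749, 565, 1634 and 578 with totals without S100a8, S100a9, mitochondrial and ribosomal protein genes. It was 642, 418, 1492 and 506 as the mean of CPM per cell. Median-of-ratios size factors gave 682 in macrophage-like cells of 4T1p and 1194 and 418 in neutrophil-like cells, and thinning gave 617 and 381 in macrophage-like cells and 1403 in neutrophil-like cells of 4T1p. Leaving out cluster 0 gave 620 in macrophage-like cells of 4T1p, and equal weight for each cluster 504 in macrophage-like cells of 4T1m and 1153 in neutrophil-like cells of 4T1p.

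The log2 ratio between the libraries in macrophage-like cells became 0.53 with median-of-ratios size factors, 0.62 as the mean of CPM per cell, 0.69 after thinning and 0.22 with equal cluster weights. In neutrophil-like cells it became 1.27 with TMM, which moved the median of all genes there from -0.07 to -0.30, and 1.37 with equal cluster weights. Median-of-ratios size factors moved the median of all genes in macrophage-like cells from -0.11 to 0.06. The log2 ratio between the lineages in the library labelled 4T1p became -1.27 with a 5% mitochondrial limit, -0.81 with median-of-ratios size factors, -1.67 with TMM and -1.22 as the mean of CPM per cell. In the library labelled 4T1m it became 0.17 with median-of-ratios size factors, -0.84 with TMM, -0.27 as the mean of CPM per cell and -0.32 after thinning.

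The number of GTPases at least 2-fold higher in macrophage-like cells of the library labelled 4T1p, 2, became 1 with cells holding a Ptprc UMI, 4 as the mean of CPM per cell and 4 after thinning. In neutrophil-like cells it was 7 instead of 8 with TMM and with equal cluster weights. Thinning left Iigp1 there at 0 and 3.20 CPM, nominally 1 gene 2-fold lower but from too few UMIs to read a ratio. The number 2-fold higher in neutrophil-like than macrophage-like cells of the library labelled 4T1m, 2, became 1 with median-of-ratios size factors and 5 with TMM. The share of all genes 2-fold higher in the library labelled 4T1p became 3.20% and 1.27% in macrophage-like cells with minimums of 20 and 200 UMIs, and 5.77% in neutrophil-like cells with 20. The share of cells with a GTPase UMI was 52.7%, 45.4%, 67.2% and 40.3% at 2000 UMIs and 56.2%, 55.3%, 72.7% and 41.9% without thinning. Without Isg15 in the type I list, neutrophil-like cells of the library labelled 4T1m with 10 or more UMIs held 2.25 GTPase UMIs. With 1 mismatch, 7 of 8 promoters held TTCNNNGAA. No paired analysis was possible because each group is 1 library and no test was made.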
